A study of Arabidopsis thaliana with 3 samples.

Results

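Among the transcripts of Arabidopsis thaliana lateral nectaries, 63 probe sets had a moderately higher signal in cwinv4-1 plants than in wild-type plants. They were chosen by their values: each had a signal at least 2 times the wild-type signal on both cwinv4-1 arrays, with a geometric mean of the 2 ratios under 3. They come from 7750 probe sets that were read on all 3 arrays and had a mean log2 signal no lower than the 25th percentile of such means, out of 14338 in the table, so 0.813% of those that could meet the rule did so. Of the 63, 35 carry a single gene name (0.871% of the 4019 such probe sets), 1 carries 2 names and 27 are unnamed here. The 35 names stand for 35 different genes, 25 of them known only by a locus code.

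The lateral nectaries are the larger nectar glands at the base of the Arabidopsis flower. CWINV4 is a cell wall invertase, an enzyme of the apoplast that turns sucrose into its hexoses, and the series title calls the mutant nectarless. The cwinv4-1 group has 2 samples and the wild-type group has 1, all of the Columbia-0 ecotype, aged 30 to 35 days, and their glands were taken at the secretory flower stages 14 to 15. Each sample is a pool of hand-dissected glands of many flowers, hybridised to its own 1-colour Affymetrix array. The first mutant sample is titled cwinv4-1a but is cwinv4-1 in its remaining labels, and the added letter is not explained. No other genotype or treatment is labelled. The lone wild-type array enters every ratio below, so the spread of wild-type nectaries is unknown. In pooled tissue, more cells of a type and more RNA per cell cannot be told apart.

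Nectar sugar is loaded from the phloem or from stored starch, made into sucrose in the gland and exported by the SWEET9 transporter, after which the wall invertase draws it out by splitting it. Nectary development and secretion are also tied to auxin, jasmonate and gibberellin. The moderately raised genes described below belong to many functions, and the named ones are taken in the order of signalling, transcription, cell division, cell wall, transport, metabolism, photosynthesis and defence. Roles of genes known only by a locus code are background knowledge of these loci and are not recorded in the deposited table.

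SWEET9 gave 19700 on the wild-type array, 16300 on replicate 1 and 38100 on replicate 2, and JMT, a jasmonate methyltransferase of nectaries, gave 11900, 12400 and 2368 in the same order. These are 2 of 7 nectary markers with a named probe set here. For pollen and tapetum 2 of 5 markers could be read, with a summed signal of 890.7 in wild-type, 911 on replicate 1 and 128.2 on replicate 2, where 1 of the 2 has no value. SPT, the only carpel marker measured of 3 listed, stood at 877.3, 767.7 and 390.9, and the 2 of 4 leaf-type photosynthesis markers measured summed to 19307, 17240 and 15065. No petal or epidermis marker of the 3 listed has a named probe set. SPT and the leaf sum were thus below wild-type on both mutant arrays. The pollen sum of replicate 2 lacks a gene and cannot be set beside the other sums. AT3G07820, the pollen marker read on all 3 arrays, had 658 in wild-type, 569.1 on replicate 1 and 128.2 on replicate 2. AT5G07430, the other, had 232.7 in wild-type and 341.9 on replicate 1, so the 2 pollen markers differed in direction there. The part of these tissues in the values below was not tested. Replicate 2 stood apart: its log2 difference from replicate 1 had an SD of 0.65 over 10334 probe sets, against 0.44 between replicate 1 and wild-type, and 5 of 6 control pairs had their highest 3′ to 5′ ratio there.

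The ratios of the 63 probe sets ran from just above 2 to 3.94 on replicate 1, with a median of 2.17, and from 2.004 to 4.15 on replicate 2, with a median of 2.63. Their geometric means ran from 2.06 to 2.99, with a median of 2.41, where the median over all 7750 probe sets was 0.968. These ratios are what the rule selected, so they describe the genes and test nothing. Replicate 2 was the higher mutant array for 46 of the 63 and replicate 1 for 17, while over all 7750 probe sets replicate 2 was higher than replicate 1 for 43.4%. Over these 7750 the log2 difference from wild-type had an SD of 0.41 on replicate 1 and 0.68 on replicate 2. A rule that asks for 2-fold on both arrays can leave the array of wider spread the higher. Nothing is therefore read from the 46. The 2 mutant signals lay within 1.2 times of each other for 28 probe sets and more than 1.5 times apart for 11. Replicate 2 over replicate 1 ran from 0.569 to 1.95 in the 63 and from 0.102 to 92.7 over all tested probe sets. The median SD of the 2 log2 differences was 0.22 (n = 2 arrays each), the same to 2 decimals as the 0.22 over all tested probe sets. The 2-fold and 3-fold limits of the rule bound how far apart the mutant signals can lie, so their closeness is partly set by the choice.

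**Figure D1:**
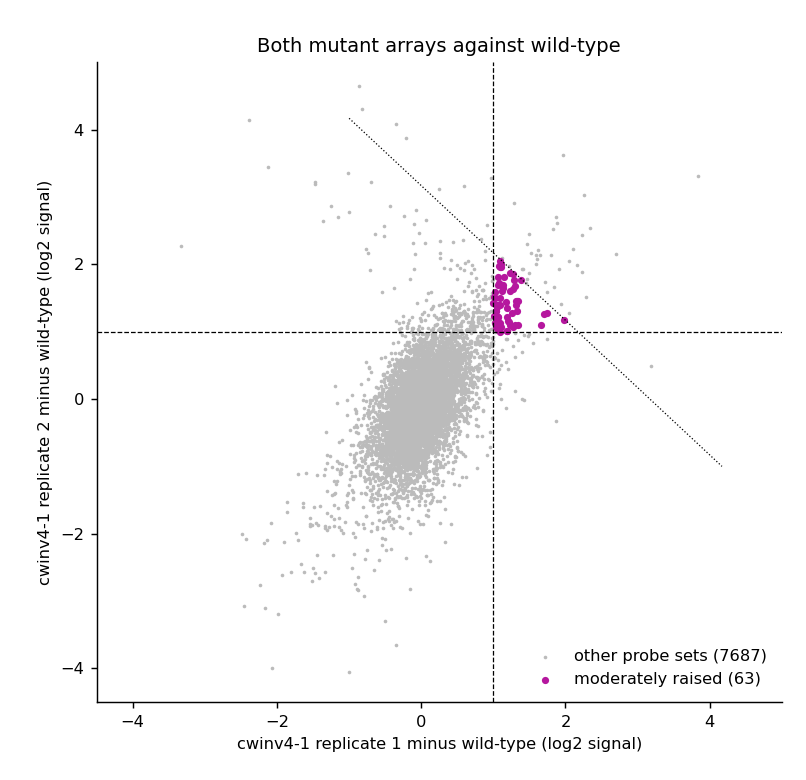
Log2 difference from wild-type on cwinv4-1 replicate 1 (x axis) and replicate 2 (y axis) for 7750 probe sets, each a point. Dashed lines mark 2-fold and the dotted line a geometric mean of 3-fold. The 63 moderately raised probe sets fill the corner between these lines, and most lie nearer to the 2-fold line of replicate 1 than to that of replicate 2.

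None of the 63 passed limma's moderated test across all 7750 probe sets (Benjamini-Hochberg adjusted p of 0.05), although all 63 had an unadjusted p under 0.05. Over all tested probe sets 17 were called higher, 0.219%, and 269 were higher at an unadjusted p under 0.05, 3.47%. The test uses the contrast that chose the genes, so nothing is read from these counts. No member gene has a second tested probe set that could serve as an independent reading.

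Genes of auxin and cell signalling made up 4 of the named members. YUC2, a flavin monooxygenase that makes auxin from indole-3-pyruvate, had a wild-type signal of 182.8 and mutant signals of 427 and 665.7, a geometric mean ratio of 2.92 (SD of the 2 log2 differences 0.45, n = 2). Its wild-type signal was below 203.8, the 25th percentile of all signals on that array, so its ratio rests on a dim signal, and it is 1.88 when a signal of 222 is added to every value as a pseudocount. IAA31, of the Aux/IAA family that represses auxin-responsive transcription, had 742.2 in wild-type and 1622 and 2321 in the mutant, a ratio of 2.61 (SD 0.37, n = 2). For both genes each mutant array lay above wild-type, as the rule requires, and replicate 2 was the higher.

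The rest of the auxin pathway was thinly measured. Of 14 listed auxin synthesis genes YUC2 alone has a named, tested probe set. IAA18, the only other Aux/IAA gene tested, had 1521 in wild-type and 1592 and 1646 in the mutant, a ratio of 1.06. Under median centring its log2 difference on replicate 2 is just below 0. Of the GH3 enzymes, which join auxin to amino acids, GH3.17 had 1329 in wild-type and 1503 and 2009 in the mutant. WES1 of the same family had 6919 in wild-type and 5878 and 3250 in the mutant, so it lay below wild-type on both arrays. No auxin response factor, PIN efflux carrier or SAUR gene was tested under these names. The lists of relatives were written after the members were known.

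RALFL22, a secreted peptide of the RALF family whose members act on receptor kinases of the cell surface, had 466.9 in wild-type and 941.8 and 1102 in the mutant, a ratio of 2.18. AT2G02780, a leucine-rich repeat receptor-like kinase, had 338.8 in wild-type and 677.7 and 913.2 in the mutant, a ratio of 2.32. Of all members it lies closest to the 2-fold limit, with a replicate 1 signal of almost exactly 2 times wild-type.

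Transcriptional regulators gave 3 named members, each higher on replicate 2 than on replicate 1. TRY, a small single-repeat MYB protein that keeps epidermal cells from becoming trichomes, had 706.1 in wild-type and 1477 and 2274 in the mutant, a ratio of 2.60 (SD 0.44, n = 2). No other of the 11 listed epidermal patterning genes was tested under a single name. AT5G53420, which carries the CCT motif known from CONSTANS, had 386.6 in wild-type and 935.9 and 1396 in the mutant, a ratio of 2.96. The 2 lie 25 places apart in the order of annotated genes on chromosome 5, which is the closest pair among the named members.

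The third regulator, bHLH34, is a basic helix-loop-helix factor that acts in the response to iron shortage together with bHLH104, bHLH115 and ILR3. It had 1501 in wild-type and 3117 and 3864 in the mutant, a ratio of 2.31. Its 3 partners had smaller ratios: 1.22 for bHLH115, above wild-type on both arrays, 1.25 for ILR3 and 0.857 for bHLH104, these 2 being below wild-type on replicate 1 and above it on replicate 2, where bHLH104 falls below it under median centring (log2 difference -0.07). Of the 4, bHLH34 alone reached 2-fold on both arrays.

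**Figure D2:**
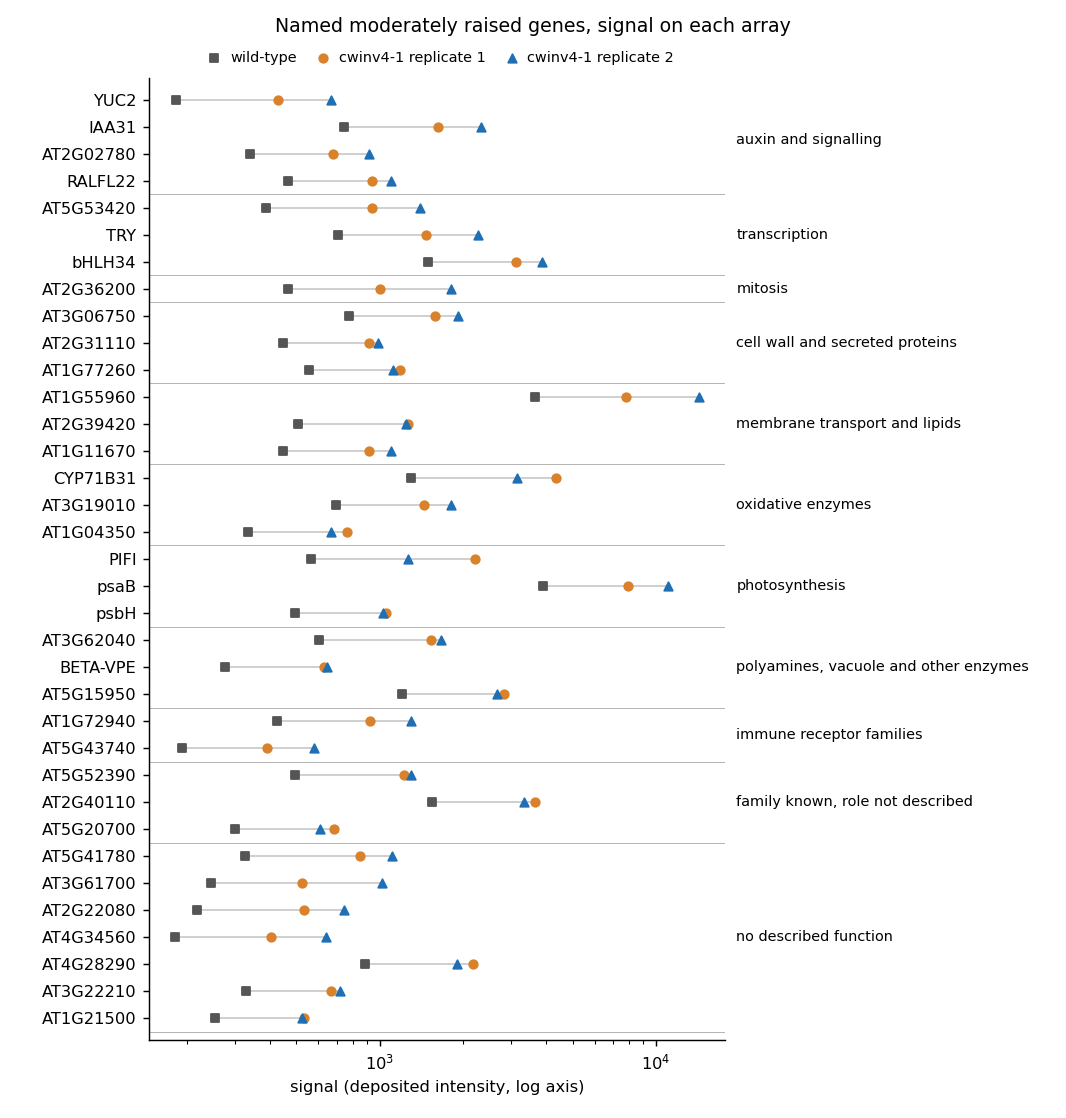
Signal of the 35 named members on each of the 3 arrays, grouped by role. The x axis is the deposited intensity on a log scale, squares are wild-type, circles cwinv4-1 replicate 1 and triangles cwinv4-1 replicate 2, with a line joining wild-type to the higher mutant array. Both mutant points lie right of the wild-type square in each row, as the rule fixes, and the mutant points nearly coincide for AT2G39420, BETA-VPE, psbH and AT1G21500.

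AT2G36200, a kinesin of the kinesin-5 class of mitotic spindle motors, had 465.4 in wild-type and 1003 and 1821 in the mutant, a geometric mean ratio of 2.90 (SD 0.61, n = 2). In the RefSeq gene table it is the next annotated gene after CWINV4 on chromosome 2, the locus that carries the mutation. Among the 20 annotated genes on each side of CWINV4, 9 have a named, tested probe set, and AT2G36200 is the only member. The other 8 had log2 differences of -0.19 to 0.47 on replicate 1 and of -0.63 to 0.40 on replicate 2, and none reached 2-fold on both arrays. The nearest of them, AT2G36160 at 3 places before CWINV4, had 632.3 in wild-type and 781.9 and 709.1 in the mutant, and AT2G36220 at 3 places after it had 3758, 4615 and 2855. CWINV4 itself is not analysed here. Of 17 listed mitotic genes only AUR1, a mitotic kinase, was also tested, with 403.2 in wild-type and 370.5 and 441.6 in the mutant. The adjacency was noticed after the values were seen, and an effect of the mutated locus on its neighbour was not tested.

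**Figure D3:**
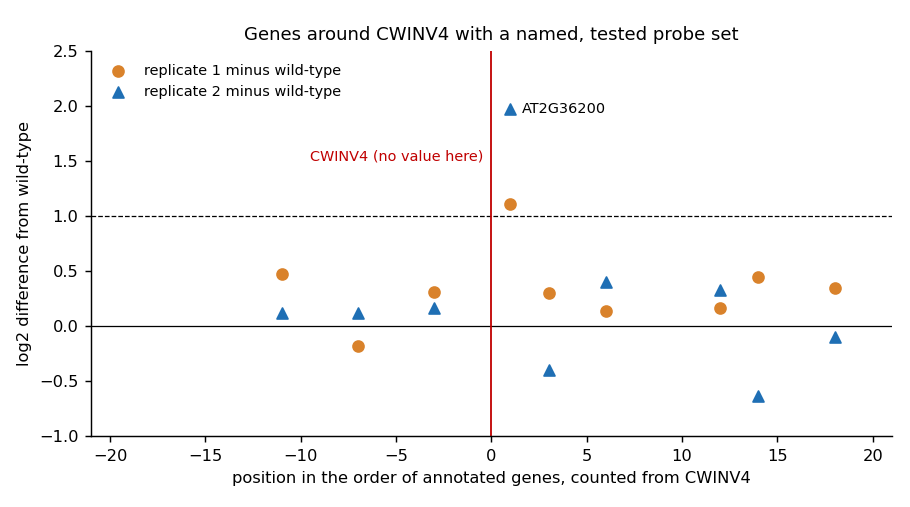
Log2 difference from wild-type on each mutant array (circles replicate 1, triangles replicate 2) for the 9 genes with a value among the 20 annotated genes on each side of CWINV4. The x axis is the place in gene order, with no distance scale, and the dashed line marks 2-fold. AT2G36200, at 1 place from CWINV4, is the only gene above that line.

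A group named for the cell wall and secreted proteins held 3 named members. For AT1G77260 only the enzyme type is given, and its place in this group was not tested. Mutant signals lay within 1.2 times of each other for AT2G31110 and AT1G77260 and 1.21 times apart for AT3G06750. AT2G31110 belongs to the TRICHOME BIREFRINGENCE-LIKE (TBL) family, which acetylates wall polysaccharides, and it had 447.6 in wild-type and 914.9 and 990.7 in the mutant, a ratio of 2.13. Of its 4 relatives tested, none reached 2-fold on both arrays, with ratios of 1.55 for TBL39, 1.46 for TBL38, 1.41 for TBL18 and 1.07 for TBL23. Above wild-type on both arrays were 3 of these 4, as were 2328 of the 7750 tested probe sets (30%).

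AT3G06750, of the hydroxyproline-rich glycoproteins, had 776.2 in wild-type and 1588 and 1922 in the mutant, a ratio of 2.25. AT1G77260, a methyltransferase that uses S-adenosylmethionine, had 556 in wild-type and 1183 and 1114 in the mutant. Its ratio of 2.06 is the lowest of the named members.

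Membrane transport and lipids gave 3 named members. AT1G55960, of the START-type lipid transport superfamily, had 3658 in wild-type and 7800 and 14300 in the mutant, a ratio of 2.89 (SD 0.62, n = 2), so replicate 2 was 1.83 times replicate 1. AT1G11670, a transporter of the MATE family, which exports metabolites and toxins, had 446.1 in wild-type and 911.9 and 1099 in the mutant, a ratio of 2.24. AT2G39420, an alpha/beta hydrolase of the monoacylglycerol lipase type, had 504.6 in wild-type and 1262 and 1245 in the mutant, a ratio of 2.48. Its SD of 0.01 (n = 2) is the smallest among the named members.

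Oxidative enzymes gave 3 named members. The cytochrome P450 gene CYP71B31 had 1301 in wild-type and 4357 and 3145 in the mutant, a ratio of 2.85, with replicate 1 the higher. Of its subfamily, CYP71B6 was also above wild-type on both arrays (371.5 against 577.2 and 608.1), while CYP71B28 was below on both (766.4 against 455.7 and 515.7). Genes of this P450 family therefore lay on both sides of wild-type. AT3G19010 and AT1G04350 belong to the dioxygenases that use iron and 2-oxoglutarate, a superfamily with members in hormone and flavonoid synthesis. AT3G19010 had 693.4 in wild-type and 1447 and 1821 in the mutant, a ratio of 2.34, and AT1G04350 had 332.7, 761.1 and 667.5, a ratio of 2.14.

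Photosynthesis gave 3 named members, of which 2 are encoded in the plastid. PIFI, a nuclear gene for a chloroplast protein linked to electron flow through the NDH complex, had 562.2 in wild-type and 2216 and 1262 in the mutant, a ratio of 2.97 (SD 0.57, n = 2). Replicate 1 was the higher, with a ratio of 3.94 against 2.24 on replicate 2. NdhS, a nuclear-encoded NDH subunit and the only other gene of that list tested, had 1449 in wild-type and 1787 and 2313 in the mutant.

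The plastid gene psaB, for a core subunit of photosystem I, had 3907 in wild-type and 7955 and 11100 in the mutant, a ratio of 2.41. The plastid gene psbH, for a small subunit of photosystem II, had 492.2 in wild-type and 1055 and 1032 in the mutant, a ratio of 2.12. Their relatives differed between the mutant arrays: the 13 plastid photosystem II genes tested had a median log2 difference of -0.07 on replicate 1 and 1.16 on replicate 2, and only 5 were above wild-type on both. In photosystem I, psaJ and psaI were below wild-type on replicate 1 (log2 difference -0.64 and -0.24) and far above it on replicate 2 (2.45 and 2.72). psbC, with 831.4 in wild-type and 1813 and 3536 in the mutant, was also at least 2-fold higher on both arrays, with a ratio of 3.05 that puts it just above the upper limit. The replicate 2 signal of psbH was 0.978 times that of replicate 1 and that of psaB 1.40 times. How far the state of that sample entered the plastid values was not tested.

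**Figure D4:**
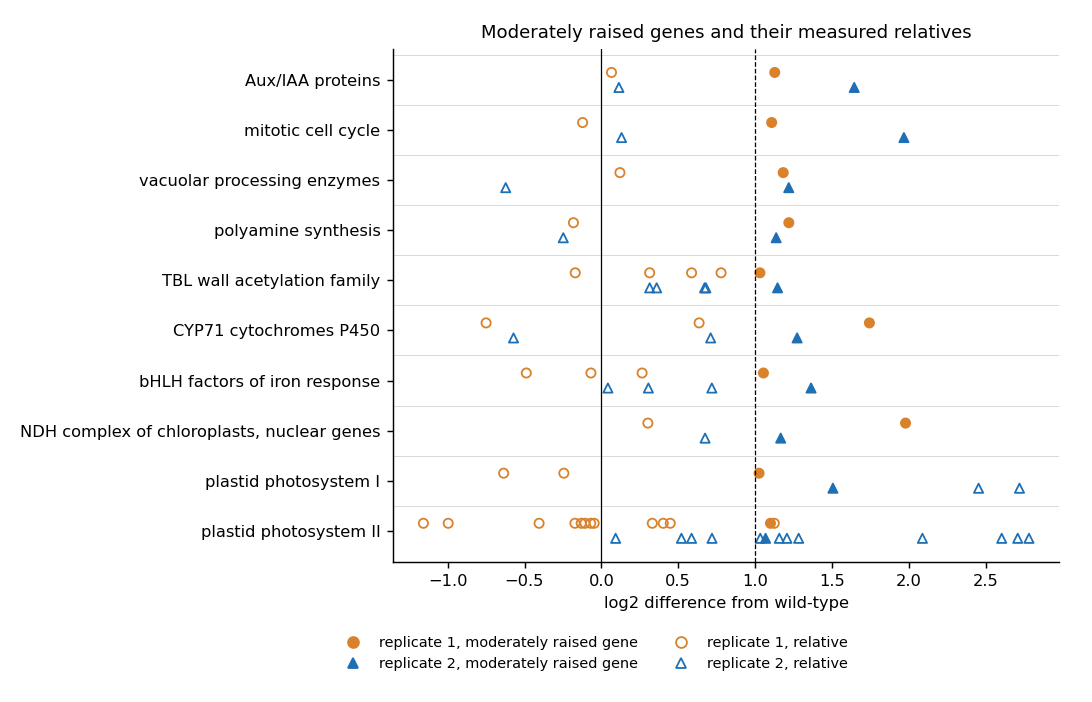
Log2 difference from wild-type of moderately raised genes (filled) and of their measured relatives (open) in 10 lists, with circles for replicate 1 and triangles for replicate 2. The dashed line marks 2-fold. Relatives of the nuclear-encoded members lie left of the line on both arrays, while plastid relatives reach values above 2 on replicate 2 only.

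A further 3 named members were enzymes of polyamines, the vacuole and phosphate ester breakdown. AT5G15950, an S-adenosylmethionine decarboxylase, which supplies the building block of spermidine and spermine, had 1208 in wild-type and 2813 and 2657 in the mutant, a ratio of 2.26. Its paralogue SAMDC had 15200 in wild-type and 13400 and 12800 in the mutant, a ratio of 0.862, so the 2 genes for the same step lay on opposite sides of wild-type on both arrays. BETA-VPE, a vacuolar processing enzyme that matures storage proteins in seeds, had 276.3 in wild-type and 627.3 and 643.2 in the mutant, a ratio of 2.30. GAMMA-VPE, the form known from vegetative organs, had 3173, 3450 and 2061, below wild-type on replicate 2. AT3G62040, a hydrolase of the haloacid dehalogenase superfamily, had 605.4 in wild-type and 1532 and 1668 in the mutant, a ratio of 2.64.

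Immune receptor families gave 2 named members. AT1G72940, a protein with the TIR domain of intracellular immune receptors, had 426 in wild-type and 924.5 and 1296 in the mutant, a ratio of 2.57. AT5G43740, of the coiled-coil NBS-LRR receptors, had 192.4 in wild-type and 392.4 and 580 in the mutant, a ratio of 2.48. The wild-type signal of AT5G43740 was under the 25th percentile of its array, so its ratio too rests on a dim value.

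For 3 named members a family is known but hardly a role. AT5G52390 belongs to the PAR1 family, named in tobacco for a response to photoassimilates, and had 493.5 in wild-type and 1222 and 1300 in the mutant, a ratio of 2.55. AT2G40110, a putative zinc-binding protein of the Yippee family, had 1552, 3644 and 3333, a ratio of 2.25. AT5G20700, of a plant family defined by the domain DUF581, had 300.4, 683.8 and 606.2, a ratio of 2.14. In all 3 the mutant signals lay within 1.2 times of each other.

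The remaining 7 named members are given without a role. AT5G41780 had the highest geometric mean ratio of all 63 probe sets, 2.99, with 324.6 in wild-type and 846.7 and 1110 in the mutant. AT3G61700 had 246.2 in wild-type and 524.6 and 1021 in the mutant. At 1.95 times, its mutant arrays were the furthest apart of all 63. AT2G22080 had a ratio of 2.88, AT4G34560 of 2.78, AT4G28290 of 2.30, AT3G22210 of 2.10 and AT1G21500 of 2.07. With 222 added to every signal, the ratio is 1.94 for AT2G22080, 1.66 for AT3G22210, 1.57 for AT1G21500 and 1.81 for AT4G34560, while the others without a role stay above 2. The wild-type signal of AT4G34560, 182.3, was the third named one under the 25th percentile of its array. In all, 5 of the 63 were under it, a larger share than the 17 of the 7750 tested (0.219%). The filter takes the mean of all 3 arrays, so genes this dim in wild-type passed it through their higher mutant signals.

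For the 28 probe sets without a single gene name, geometric mean ratios ran from 2.06 to 2.94 with a median of 2.44, against 2.41 for the named. The rule confines the ratios of all members to between 2 and 3, so nothing is read from this likeness. The highest were 245215_at, with 554.7 in wild-type and 1192 and 2224 in the mutant, and 260438_at, with 177.9, 377.3 and 700.3. The probe set 248371_at had 4304 in wild-type and 8999 and 15100 in the mutant, a ratio of 2.71. The probe set shared by AT1G73885 and UGT89B1, a flavonol glucosyltransferase gene, had 422.4 in wild-type and 880.1 and 982.6 in the mutant, and the array cannot say which of the 2 genes gave the signal. These probe sets were named after their values were seen.

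The limits of the group cut through a continuous range. Just outside the 2-fold limit lay AT2G37240, with ratios of 1.98 and 2.05, and the unnamed 260546_at, with 1.997 and 2.90. Just above the 3-fold limit lay AT5G38210, with a geometric mean ratio of 3.01, and AT4G33560, with 3.03. Just under it lay AT5G41780 at 2.99 and PIFI at 2.97. In total 100 probe sets, 1.29%, were at least 2-fold higher on both arrays, of which 63 lay under the 3-fold limit.

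Position and gene length took no part in the rule. The named members were 7 on chromosome 1, 6 on chromosome 2, 10 on chromosome 3, 3 on chromosome 4, 7 on chromosome 5 and 2 in the plastid genome, which is 0.527% to 1.18% of the named, tested probe sets of each nuclear chromosome and 3.64% of the 55 of the plastid. The plastid share rests on 2 genes. Plastid photosystem II genes had a median log2 difference of 1.16 on replicate 2, already past 2-fold on that array. Nothing is therefore read from the plastid share. The median gene length of the named members was 2079 bases, against 2376 bases over 4018 named, tested probe sets. None of the 63 carries the suffix that marks probes shared between transcripts, which 286 of 7750 carry. Nothing is read from this count, since 1 of the 63 carries 2 gene names without the suffix. Signal level did enter the rule. In 4 equal bins of mean signal, from dim to bright, 16, 21, 12 and 14 members fell in each, or 0.826%, 1.08%, 0.620% and 0.722%. The median wild-type signal of the members was 465.4, against 949.5 over all tested probe sets, and their median mutant signals were 961.8 and 1114, against 954 and 881.1. A low wild-type value makes the rule easier to meet, so these levels are partly set by the choice.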

How the data were processed

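Lateral nectary RNA was measured on 3 arrays. The authors deposited linear signal intensities per probe set, made with MAS5 per the submitters' processing notes, and further wild-type arrays, not used here, entered their normalization per the series' design text. A missing cell was kept as missing, and 37 control probe sets were left out. Medians of the arrays were 500.8 and 549.8 (cwinv4-1 replicates 1 and 2) and 507.8 (wild-type). Precision is limited by having so few arrays. The deposited intensities were taken to log2 with no further scaling.

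Members and lists were chosen with earlier results of these data known. Every named member is reported, and signals are printed for all but 5 of those without a described role. Names come from GEO's platform annotation, and all 35 named members matched the RefSeq gene table of TAIR10.1, 34 by gene number and 1 by symbol. The files state no build, so no coordinates are given. The class search in that table found text for 214 of 4019 named probe sets, 4 of them members, so classes were not compared. Promoter motifs were planned and were not analysed here. The background fit was limma 3.58.1 in R 4.3.3 (lmFit, eBayes with trend, two-sided, with 1 residual degree of freedom, which the mutant pair gives, and the wild-type array assumed to vary alike). The selection and the fit were tested on simulated data. For the fit the planted changes were larger than those of the members and the spread was smaller than between the mutant arrays. How well it finds changes of the members' size was not tested. Alternatives were other scalings, floors, filters and limits, and each mutant array alone. Whether the replicates came from separate plants is given only as biological replicates.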

Additional observations from a re-analysis of the deposited data

Results flagged for a closer look

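A signal in control probe sets outside the comparison stood out. For 1 GAPDH control pair the 3′ probe set read 11.2 times the 5′ one on cwinv4-1 replicate 2, where wild-type gave 4.81 and replicate 1 gave 2.87. Its part in the values of the moderately raised genes was not tested.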

How the results depend on the processing

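All 35 named members stayed above wild-type under every scaling, floor, pseudocount and single array tried, with no ratio reversed. The rule fixes this for the single arrays, and a floor or pseudocount cannot reverse a ratio. Only the scalings could have done so. The median of their geometric mean ratios was 2.41 as reported and 2.03 with the pseudocount given next. The number of moderately raised probe sets, 63 as reported with 35 named, was 24 with 13 named when a signal of 222 was added as a pseudocount, and 284 with 135 named at 1.5-fold. With 1 mutant array left out it ran from 101 to 254, and the named from 49 to 131. Median centring moved the median log2 difference of replicate 2 over all probe sets by -0.11, and it turned the replicate 2 sign of IAA18, bHLH104 and psbM among the relatives, quantile normalization that of psbM alone. Each of these scalings lost 7 of the 35 named members. Under median centring AT1G77260, AT1G04350, AT5G20700, AT1G21500, AT4G28290, AT2G40110 and psbH missed 2-fold on replicate 2. After quantile normalization RALFL22, AT2G02780, AT3G22210 and AT5G43740 missed it on replicate 1, and AT5G41780, PIFI and AT5G53420 passed the 3-fold limit. The floor lost YUC2, AT4G34560 and AT5G43740. The pseudocount lost 28, and 16 then had a geometric mean ratio under 2. Besides YUC2 and the dim genes without a role given above, these were AT5G20700 (1.66), AT1G04350 (1.69), AT5G43740 (1.69) and BETA-VPE (1.72). Further ones were AT2G31110 (1.75), AT1G77260 (1.76), psbH (1.77), RALFL22 (1.80), AT2G02780 (1.80), AT1G11670 (1.83) and AT3G06750 (1.97). Of the 63, 55 were kept after quantile normalization, 51 after median centring, 57 with a floor at 222, 13 with the pseudocount, 59 without replicate 2 and 43 without replicate 1, since the 3-fold limit then applies to 1 array. Limma called 33 probe sets in all, 95 after median centring and 0 after quantile normalization or with the floor, where 240 and 260 had a higher signal at an unadjusted p under 0.05. It called none of the 63 in any of these fits, while all 63 had an unadjusted p under 0.05 in each. No paired analysis was possible, as there is 1 wild-type array and the labels pair no samples. The single wild-type array and dim wild-type signals limit every ratio.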
